A study of Mus musculus with 6 samples.

Results

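The E2F transcription factors and the retinoblastoma (pocket) proteins that bind them were followed at the mRNA level in sorted CD4+ CD8+ double positive (DP) thymocytes. The genes were found by symbol, as *E2f1*, *E2f2*, *E2f3*, *E2f4*, *E2f6*, *E2f7* and *E2f8* for the E2Fs and *Rb1*, *Rbl1* and *Rbl2* for the pocket proteins, and all 10 were among the 23183 gene symbols in the files. The WT libraries came from *Nsrp1* f/f mice, which carry the floxed allele without Cre, and the NSrp70-cKO libraries from *Nsrp1* f/f CD4Cre mice, in which a CD4Cre transgene driven by CD4 regulatory elements deletes the splicing regulator NSrp70, by design from the late double negative stage that precedes the DP stage. Both groups were C57BL/6 mice of 6 weeks, the cells were of the thymus, and 3 libraries were made per genotype. The labels do not say whether the 3 libraries of a genotype came from separate mice, so the p-values measure the spread between these libraries, which may be technical.

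E2F proteins bind the promoters of genes for DNA synthesis and the cell cycle. E2F1, E2F2 and E2F3 act mainly as activators, and E2F4 and E2F6 mainly as repressors. E2F7 and E2F8 are atypical repressors that bind DNA without the dimerization partners encoded by *Tfdp1* and *Tfdp2*. The pocket proteins pRB (*Rb1*), p107 (*Rbl1*) and p130 (*Rbl2*) hold E2Fs in an inactive or repressing complex until cyclin-dependent kinases phosphorylate them. In resting cells E2F4, p130 and the MuvB proteins form the DREAM complex, and p107 is itself made from an E2F target gene and is typical of dividing cells. In the thymus a wave of division precedes the DP stage, and most DP cells are then small and resting, with a fraction of cycling blasts.

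The values were FPKM (fragments counted per kilobase, relative to the depth of the library), which are per length, so that levels can be set beside each other between genes. The mapped depth, estimated from the steps of 1 fragment at low genes, was 20.7 to 20.8 M (mega) fragments in WT and 13.1 to 20.7 M in cKO. Counting noise would give a chi-square per degree of freedom near 1, and the pairs of WT libraries were at 1.51 to 1.61 and those of cKO at 27.2 to 61.9. *Nsrp1*, listed as *Ccdc55*, had 20.2, 20.7 and 21.1 FPKM in WT 1, 2 and 3 and 17.7, 15.8 and 15.0 FPKM in cKO 1, 2 and 3 (log2 fold change -0.34, adjusted p = 0.00675 from limma, 0.184 after averaging WT into 1 sample). DP markers were abundant, the lowest library of *Cd4* being at 485.6 FPKM. The genotypes also differed in *Xist* (69.8 to 72.0 in WT, 4.07 to 5.44 in cKO) and in the Y-linked *Ddx3y* (listed at 0 in all WT libraries, 26.2 to 35.0 in cKO), so sex and genotype cannot be told apart. At a limma adjusted p under 0.05, 4 of 5 mature single positive markers were lower in cKO and 1 was higher. Of 5 early thymocyte markers 4 were tested and 3 were lower. Over all tested genes 29.8% were lower and 35.8% higher. The 4 erythroid markers summed to an FPKM of 1.96 to 2.72 in WT and of 12.3 to 26.55 in cKO, mostly *Hba-a1* and *Hbb-b1*. The 5 thymic epithelial markers summed to 3.56 to 3.98 FPKM in WT and 1.92 to 3.68 in cKO, nearly all of it *Epcam*, with *Foxn1* and *Krt5* listed at 0 in all libraries. The part of these cells and of sex in the results was not tested.

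Of the 10 genes, *E2f2* was the most abundant and *E2f7* the least in both genotypes. The mean FPKM in WT was 94.7 for *E2f2* and 73.3 for *E2f4*, followed by 32.2 for *Rb1*, 26.6 for *Rbl2*, 20.4 for *Rbl1*, 18.5 for *E2f8*, 10.6 for *E2f1*, 4.55 for *E2f6*, 4.31 for *E2f3* and 3.23 for *E2f7*. Neighbours in this order did not overlap between libraries, except *E2f6* and *E2f3*. In cKO the order of the mean FPKM changed at one place, with *Rbl1* (28.4) above *Rbl2* (25.6), and *E2f4* (38.8) had come down to the level of *Rb1* (37.6), which its range overlapped. *E2f2* and *E2f4* together made up most of the summed FPKM of the 7 listed E2F genes, which leave out *E2f5*. The share of *E2f4* in this sum was 34.5% to 35.5% in the WT libraries and 22.5% to 24.5% in the cKO libraries, and that of *E2f2* was 44.5% to 46.0% and 51.8% to 56.6%. The mean FPKM of *E2f2* itself was not higher in cKO (88.4, against 94.7 in WT). The estimated fragments behind a value ran from 192 to 276 for *E2f6* to between 4848 and 9110 for *E2f2*, so that counting error alone was at most 7.22% (SD) for a member, as an approximation from the longest coding transcript.

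**Figure D1:**
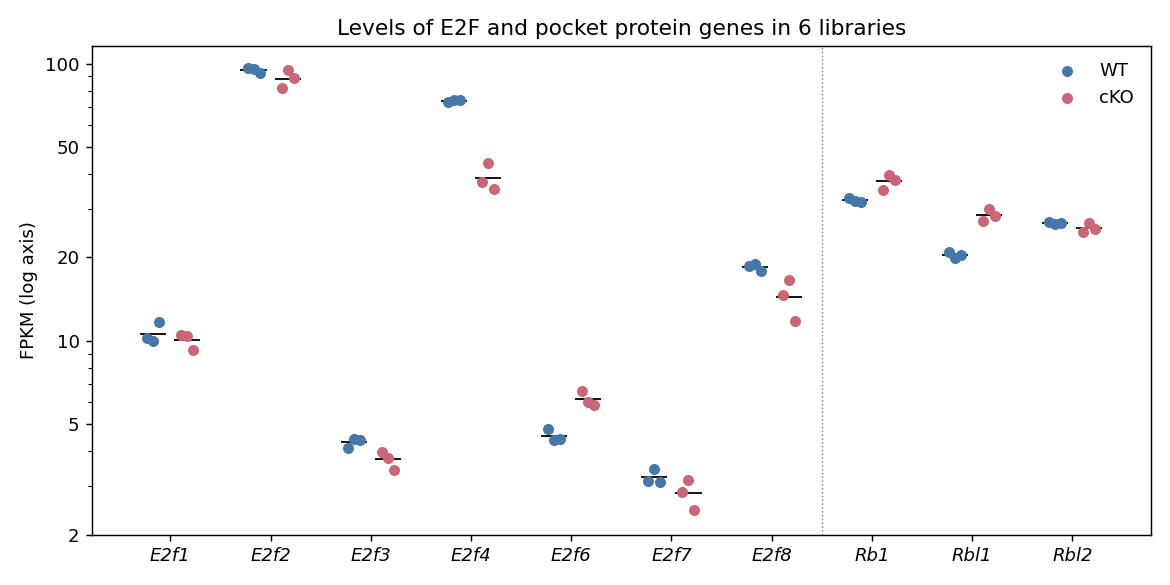
FPKM (log axis) of the 7 E2F genes and the 3 pocket protein genes, 1 point per library, WT in blue and NSrp70-cKO in red, with a line at the mean of 3 libraries. The *E2f4* points of cKO (35.2 to 43.9) lie far below those of WT (72.5 to 73.7), the *E2f6*, *Rb1* and *Rbl1* points of cKO lie above those of WT, and the points of *E2f1*, *E2f2*, *E2f7* and *Rbl2* overlap.

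The comparison asked which of these genes differed between NSrp70-cKO and WT DP thymocytes. *E2f4* fell most, *E2f8* fell less, and *Rbl1*, *E2f6* and *Rb1* rose, while *E2f1*, *E2f2*, *E2f3*, *E2f7* and *Rbl2* did not pass the test. The test was limma on log2(FPKM + 1) over 10326 genes that reached 1 FPKM in 3 or more libraries, all 10 members among them, and a gene is called where its Benjamini-Hochberg adjusted p was under 0.05. This scale understates the change of low genes. With 3 members called higher and 2 lower, 50% of the family was called, against 65.5% of all tested genes (35.8% higher and 29.8% lower). The cKO and WT values did not overlap for 6 of the 10 members, 3 of them above WT and 3 below, against 72.5% of all tested genes (39.2% above, 33.3% below). The shares of called members were thus no higher than those of genes in general. The median log2 fold change of the 10 members was -0.087, against 0.039 over all tested genes.

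Other treatments of the values moved both the members and the background. Averaging WT into 1 sample, because those libraries differed by little more than counting noise, left 1 member called, *E2f4*, against 15.9% of all tested genes (7.21% higher, 8.73% lower). With FPKM totals equalized 0 members were called higher and 8 lower, against 68.6% of all genes (8.74% higher, 59.9% lower). Under quantile normalization 2 were higher and 3 lower, against 63.2% (33.3% higher, 29.9% lower). After correcting GC content and length 4 were higher and 1 lower, against 56.7% (29.9% higher, 26.8% lower). With the replicate number as a block 2 were higher and 2 lower, against 62.6% (34.0% higher, 28.6% lower).

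*E2f4*, which encodes the most abundant repressor E2F of many resting cells, lies on chromosome 8 from 105297663 to 105305370 of GRCm38 (mm10). Its FPKM was 72.5, 73.7 and 73.7 in WT 1, 2 and 3 and 37.4, 43.9 and 35.2 in cKO 1, 2 and 3. All cKO libraries were far below all WT libraries, and cKO 2 was the highest of the 3. The mean fell by 47.0%, with -0.91 as the log2 fold change (SE 0.086, limma adjusted p = 0.000248), and 6.31% of the tested genes had a lower log2 fold change. The call held in all 17 other settings, with log2 fold changes between -1.46 and -0.73 and adjusted p-values up to 0.0350, the last after averaging WT into 1 sample.

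*E2f6*, on chromosome 12 from 16810963 to 16839742, encodes an E2F that lacks the pocket-binding region and represses with Polycomb proteins, and it moved the other way. It was at 4.82, 4.41 and 4.42 FPKM in WT and at 6.59, 6.00 and 5.86 FPKM in cKO. The groups did not overlap, at 1.35 times the WT mean in cKO, and the log2 fold change was 0.36 (SE 0.078, limma adjusted p = 0.00520). The adjusted p was 0.161 after averaging WT into 1 sample, and the log2 fold change was -0.11 (adjusted p = 0.388) with FPKM totals equalized. The GC and length correction together with the replicate block also ended the call (0.24, adjusted p = 0.0605). The FPKM totals were 521296 to 531517 in WT and 701396 to 850548 in cKO, and equalizing them takes the median of all tested genes from 0.039 to -0.45. Relative to that median *E2f6* was still higher and *E2f4* still lower.

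The activator genes are *E2f1* (chromosome 2, 154559407 to 154569892), *E2f2* (chromosome 4, 136172394 to 136196057) and *E2f3* (chromosome 13, 29906575 to 29986063). For *E2f1* the FPKM was 10.2, 9.96 and 11.7 in WT and 10.5, 10.4 and 9.28 in cKO. These values overlapped, and the 95% interval of the log2 fold change of -0.072 ran from -0.27 to 0.13 (adjusted p = 0.486 from limma). *E2f2*, whose loss in mice is known to make T cells divide more readily, had an FPKM of 96.5, 95.4 and 92.3 in WT and of 81.5, 95.1 and 88.6 in cKO. Of the cKO libraries, cKO 2 was within the WT range and the other 2 were below it, and the log2 fold change of -0.10 had an interval from -0.28 to 0.072 (adjusted p = 0.256). *E2f3* had an FPKM of 4.09, 4.44 and 4.40 in WT and of 3.99, 3.79 and 3.43 in cKO. Its groups did not overlap, with all cKO libraries the lower, but its log2 fold change of -0.17 (interval -0.36 to 0.019) had an adjusted p of 0.0989. Without cKO 1 the adjusted p of *E2f3* was 0.0494, and without cKO 2 *E2f2* had a log2 fold change of -0.15 (adjusted p = 0.0361).

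The result for *E2f1* and *E2f2* changed with a joint correction for base composition and transcript length, which were not corrected separately. Their longest coding transcripts hold 58.3% and 56.6% G and C, against a median of 49.96% over the tested genes, and the log2 fold change fell with GC content across 10241 genes (Spearman's rho -0.33, genes are not independent replicates). It also fell with transcript length (rho -0.30). The length was 2755 bases for *E2f1* and 4739 for *E2f2*, against a median of 3005. When each library was corrected for GC content and transcript length, both turned positive and were called, at 0.37 (adjusted p = 0.00697) for *E2f1* and 0.43 (adjusted p = 0.00466) for *E2f2*. With FPKM totals equalized, both were called lower, at -0.58 and -0.66, and under quantile normalization *E2f2* was called lower at -0.42 (adjusted p = 0.00386). *E2f4*, at 56.1% G and C, had a log2 fold change of -0.73 after the correction (adjusted p = 0.00125).

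The atypical repressors are *E2f7* (chromosome 10, 110745439 to 110787384) and *E2f8* (chromosome 7, 48866429 to 48881596), which check the activators late in S phase. *E2f8* had an FPKM of 18.6, 19.0 and 17.9 in WT and of 14.6, 16.6 and 11.8 in cKO. All cKO libraries were lower, with the widest relative spread of the 10 genes (a coefficient of variation of 16.9% in cKO and 3.00% in WT). The mean fell by 22.3%, and the log2 fold change was -0.36 (SE 0.12, limma adjusted p = 0.0289). This call was lost when WT 1, WT 2, WT 3 or cKO 1 was left out (adjusted p from 0.0513 to 0.0865), after averaging WT into 1 sample (0.246), with no filter on low genes (0.0540) and with the GC and length correction (0.0558), always with the same direction. Without cKO 3, the lowest library, the log2 fold change of *E2f8* was -0.23 (adjusted p = 0.0402). *E2f7* had an FPKM of 3.12, 3.45 and 3.11 in WT and of 2.84, 3.15 and 2.45 in cKO, which overlapped, with a log2 fold change of -0.15 (interval -0.37 to 0.069, adjusted p = 0.190). On the opposite strand *E2f8* shares 610 exonic bases with *Gm2788*, and the files do not say whether fragments were assigned by strand.

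Among the pocket proteins, the promoters of *Rbl1* and *Rbl2* show how this pair differs in sequence. E2F sites were searched as TTTCCCGC, TTTCGCGC, TTTGCCGC and TTTGGCGC on both strands, in the window from 250 bases before to 50 bases after each RefSeq start (GRCm38.p6). Of 32851 such windows 2.26% held a match, and of the 10052 windows of tested genes 4.30% did. Of the members, 8 had at least 1 window, not *E2f4* and *Rb1*, and 4 of the 8 held a match, namely *E2f2*, *E2f3*, *E2f7* and *Rbl1*. Of the 7923 tested genes with a window 5.17% held a match. The only window of *E2f1* has its upstream bases at 154569427 to 154569676, inside the gene. The bases before the outer start of *E2f1* were not searched, so it cannot be counted as free of a match. The 250 bases before the start are given 5′ to 3′ on the gene's strand, with matches in capitals, for *Rbl1* (chr2:157204535-157204784, minus strand), *Rbl2* (chr8:91069807-91070056, plus strand) and *E2f7* (chr10:110745189-110745438, plus strand), the first because it rose and holds a match, the second as its relative without one, and the third because it holds a match and did not pass the test.
Rbl1: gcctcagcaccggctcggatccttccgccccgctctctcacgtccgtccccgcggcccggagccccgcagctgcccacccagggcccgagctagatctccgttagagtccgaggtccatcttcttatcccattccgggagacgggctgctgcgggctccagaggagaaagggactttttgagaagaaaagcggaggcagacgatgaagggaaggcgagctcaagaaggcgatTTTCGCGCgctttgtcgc
Rbl2: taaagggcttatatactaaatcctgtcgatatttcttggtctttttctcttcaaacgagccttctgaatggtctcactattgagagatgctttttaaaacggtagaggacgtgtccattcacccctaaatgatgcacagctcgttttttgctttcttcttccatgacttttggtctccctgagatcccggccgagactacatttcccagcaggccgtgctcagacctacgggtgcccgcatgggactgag
E2f7: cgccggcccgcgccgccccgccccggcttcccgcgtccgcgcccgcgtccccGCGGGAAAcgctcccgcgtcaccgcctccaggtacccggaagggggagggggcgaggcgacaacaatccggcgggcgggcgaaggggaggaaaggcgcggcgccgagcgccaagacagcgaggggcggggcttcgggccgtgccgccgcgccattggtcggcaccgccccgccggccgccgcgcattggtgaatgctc
The *Rbl1* match lies close to the start, and the *E2f7* match lies far upstream and reads on the strand opposite to the gene. A match is a description of the letters and does not show binding.

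*Rbl1*, on chromosome 2 from 157145893 to 157204534, encodes p107 and rose most of the 10 genes. Its FPKM was 20.9, 19.9 and 20.5 in WT and 27.1, 29.8 and 28.3 in cKO, with every cKO library above every WT library. The cKO mean was 1.39 times the WT mean, or 0.45 on the log2 scale of the fit (SE 0.062, limma adjusted p = 0.000840), and 76.3% of the tested genes had a lower one. The adjusted p of *Rbl1* was 0.0864 after averaging WT into 1 sample, and with FPKM totals equalized its log2 fold change was -0.086 (adjusted p = 0.489), still above the median of all genes.

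*Rbl2*, on chromosome 8 from 91070057 to 91123844, encodes p130, the pocket protein of resting cells, and had the smallest log2 fold change of the 10 genes. It had an FPKM of 26.8, 26.4 and 26.6 in WT and of 24.8, 26.6 and 25.4 in cKO. The groups overlapped through cKO 2, and the interval of the log2 fold change of -0.056 ran from -0.19 to 0.080 (adjusted p = 0.418 from limma). *Rbl2* shares 693 exonic bases with *Aktip* and 892 with *Gm45464*, both on the other strand.

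*Rb1*, on chromosome 14 from 73183673 to 73325822, encodes pRB. It had an FPKM of 32.8, 32.1 and 31.8 in WT and of 34.9, 39.8 and 38.1 in cKO, with all cKO libraries the higher. The log2 fold change was 0.21 (SE 0.067, limma adjusted p = 0.0258), and the call was lost with the replicate number as a block (0.0714), when WT 1, WT 2, WT 3 or cKO 3 was left out (adjusted p from 0.0566 to 0.101), after averaging WT into 1 sample (0.365), under quantile normalization (0.220) and with the GC and length correction (log2 fold change 0.062, adjusted p = 0.359). With FPKM totals equalized it was called lower, at -0.33, still above the median of all tested genes (-0.45). *Rb1* shares 408 exonic bases with *Lpar6* and 488 with *Rcbtb2*, both on the opposite strand, and *Rcbtb2* was at 69.8 to 70.6 in WT and at 108.6 to 121.2 in cKO (FPKM).

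**Figure D2:**
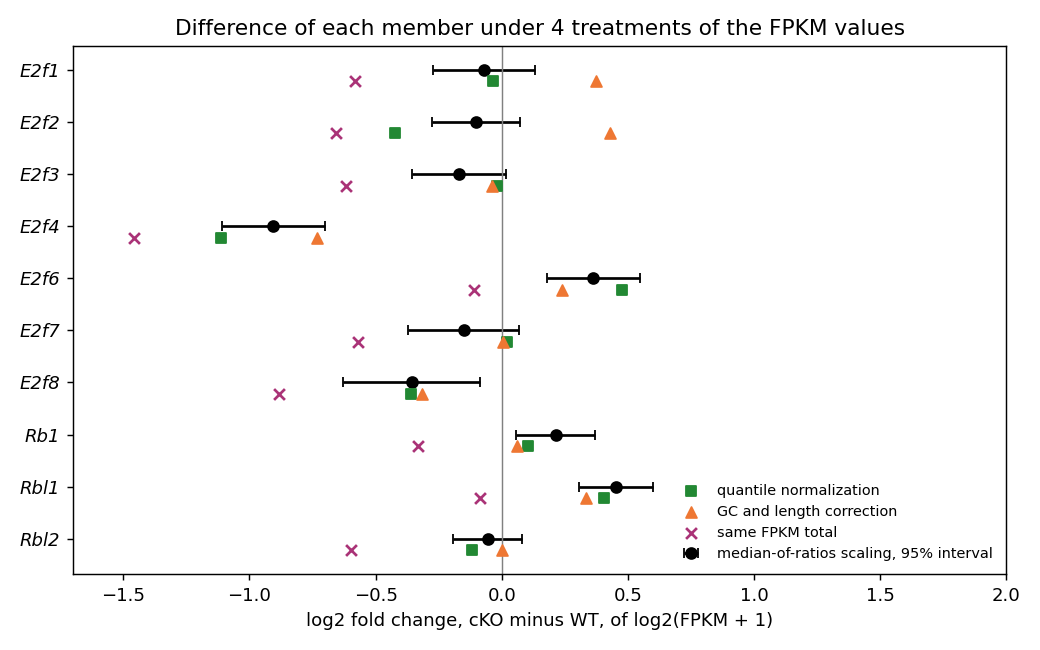
Log2 fold change (cKO minus WT, of log2(FPKM + 1)) of each member, with black points and bars for the limma estimate and its 95% interval and coloured marks for 3 other treatments of the values. *E2f4* lies below 0 in each (from -1.46 to -0.73), *E2f1* and *E2f2* lie above 0 with the GC and length correction only, and *Rbl1*, *E2f6* and *Rb1* fall below 0 with FPKM totals equalized.

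The order of the cKO libraries was counted over the 10 members only, with no count over all tested genes to set beside it. For 7 of the 10 members cKO 2 held the highest value of the cKO libraries and for 0 the lowest, while cKO 3 held the lowest for 6 and the highest for 0. In estimated depth cKO 2 was the one cKO library at the level of WT. Its FPKM total was the lowest of the cKO libraries (701396, against 791104 in cKO 1 and 850548 in cKO 3). The part of depth and of the totals in the order was not tested.

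Ratios of members within a library do not depend on how libraries are scaled to each other, and 4 pairs were compared. The ratio of *Rbl1* to *Rbl2* in FPKM was 0.778, 0.754 and 0.770 in the WT libraries and 1.09, 1.12 and 1.11 in the cKO libraries, so that p107 mRNA was below p130 mRNA in every WT library and above it in every cKO library. The log2 ratio differed by 0.53, and the SD of the cKO libraries was 0.020. The ratio of *Rbl1* to *Rb1* was 0.622 to 0.644 in WT and 0.742 to 0.776 in cKO. For *E2f1* to *E2f4* the ratio was 0.141, 0.135 and 0.158 in WT and 0.281, 0.237 and 0.263 in cKO, a difference of 0.85 on the log2 scale. *E2f8* to *E2f6* went down, from 3.86, 4.30 and 4.04 in WT to 2.22, 2.77 and 2.01 in cKO, a log2 difference of -0.81. In all 4 pairs the genotypes did not overlap, and the two-sided p of the exact permutation test was 0.10, the smallest that 3 libraries against 3 allow. The pairs were picked with the values of the members known, so this p cannot test them. The share of other gene pairs that separate the genotypes was not computed. After the GC and length correction the log2 differences were 0.35 for *Rbl1* to *Rbl2*, 1.16 for *E2f1* to *E2f4* and -0.62 for *E2f8* to *E2f6*.

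**Figure D3:**
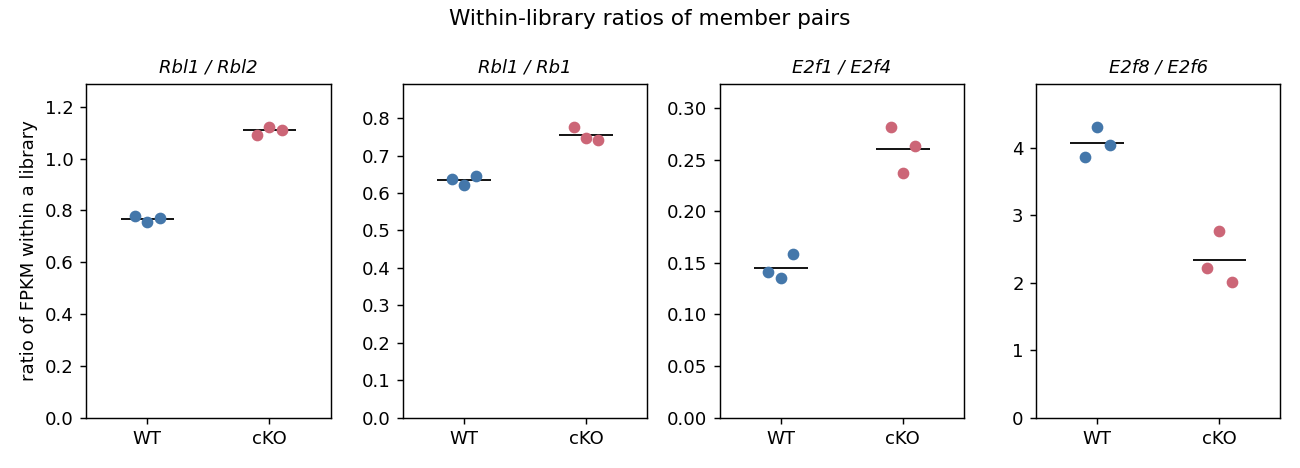
Ratio of FPKM within each library for 4 pairs of members, axes from 0, with 1 point per library and a line at the mean of the 3 ratios. The *Rbl1* to *Rbl2* ratio passes from 0.754 to 0.778 in WT to 1.09 to 1.12 in cKO, and the *E2f1* to *E2f4* ratio from 0.135 to 0.158 to 0.237 to 0.281.

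The proteins that E2Fs and pocket proteins work with were taken as a list of 9 genes, the dimerization partners, the MuvB core and the late cell cycle factors that join MuvB. Of these 6 were called higher and 2 lower in cKO, against 35.8% and 29.8% of all tested genes. Their median log2 fold change was 0.35, against 0.039. *Tfdp1*, the main dimerization partner of E2F1 to E2F4, rose from 62.4 to 64.7 in WT to 89.3 to 93.7 in cKO (FPKM, log2 fold change 0.52), while *Tfdp2*, the second partner, fell from 11.2 to 11.5 to 8.22 to 8.72 (-0.40). The 2 partners thus moved in opposite directions. Of the MuvB genes, *Lin37* (log2 fold change 0.61), *Lin54* (0.49), *Lin9* (0.43), *Rbbp4* (0.35) and *Lin52* (0.29) were all called higher. After the GC and length correction *Lin9* (0.18, adjusted p = 0.0847), *Rbbp4* (0.24, 0.0779) and *Lin52* (-0.037, 0.683) were not called, and *Lin52* had changed sign. *Foxm1*, the transcription factor of G2/M genes, was called lower (-0.29, adjusted p = 0.00734 from limma), but was at 0.084 and not called after the GC and length correction, and *Mybl2*, which takes over MuvB in S phase, had an FPKM of 10.3 to 10.9 in WT and of 9.69 to 15.2 in cKO (adjusted p = 0.236) and was called higher with that correction (0.65, adjusted p = 0.00873). After averaging WT into 1 sample the calls of this list were lost, while its median stayed at 0.35, against 0.039 over all tested genes. With FPKM totals equalized 0 were higher and 3 lower, against 8.74% and 59.9% of all genes, at a median of -0.21 against -0.45.

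Upstream of the pocket proteins, 14 genes for cyclins, their kinases and kinase inhibitors were listed, of which 13 were tested, with 8 called higher and 1 lower. The median log2 fold change was 0.51 against 0.039 over all tested genes, of which 35.8% were called higher and 29.8% lower. Under quantile normalization 6 were higher and 1 lower, at a median of 0.12 against 0.029. Cyclin E2 (*Ccne2*) rose most, from an FPKM of 4.05 to 4.43 in WT to 11.6 to 13.7 in cKO, 3.09 times the WT mean. *Ccna2*, the S phase cyclin, rose 2.10 times, *Cdk4*, the kinase of the D cyclins, 1.59 times, and *Cdkn2c*, an inhibitor of CDK4 and CDK6, 1.88 times. *Ccnd2*, a D cyclin, fell from 4.59 to 5.54 to 0.653 to 0.899 (log2 fold change -1.80, adjusted p = 8.29e-05 from limma). The far more abundant D cyclin *Ccnd3* was called higher, at 395.0 to 408.7 in WT and 496.7 to 737.2 in cKO (0.62, limma adjusted p = 0.00959). It was not called under quantile normalization (0.0058) or with FPKM totals equalized (0.064). *Ccnd1*, which was not tested, was at 0.986 to 1.38 in WT and 0.504 to 0.767 in cKO. After averaging WT into 1 sample 3 were called higher and 1 lower (all tested genes 7.21% and 8.73%), whereas equalized FPKM totals gave 3 higher and 4 lower (8.74% and 59.9%).

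Genes that E2F and DREAM complexes are known to control were mostly higher in cKO. Of 30 G1/S genes 26 were called higher and 1 lower, with a median log2 fold change of 1.03, and of 20 G2/M genes 19 were called higher and 1 lower, with a median of 0.88, against 35.8% of all tested genes higher and 29.8% lower. Among the largest rises in the first list were those of *Rfc4* (2.66 times the WT mean), *Mcm5* (2.52) and *Mcm10* (2.49), which serve DNA replication. *Cdt1*, a licensing factor, was the one lower gene, at an FPKM of 31.4 to 33.1 in WT and of 18.6 to 21.9 in cKO (log2 fold change -0.68, adjusted p = 0.000403 from limma). In the second list *Cdc25c* (2.63 times), *Ccnb1* (2.54), *Birc5* (2.36) and *Aurka* (2.31) rose most, all genes of mitotic entry or division, and *Cdc25b* was lower (-0.24, limma adjusted p = 0.0134), a call lost after the GC and length correction (-0.038, adjusted p = 0.622). The same lists had medians of 0.48 and 0.33 with FPKM totals equalized, against -0.45 over all genes, and 0.93 and 0.91 after the GC and length correction. After averaging WT into 1 sample 24 G1/S genes were called higher and 1 lower, and 13 G2/M genes higher and 0 lower, against 7.21% and 8.73% of all tested genes. In sorted but bulk samples, a larger share of cycling cells and more mRNA per cell cannot be told apart. The share of genes with an E2F match in a promoter window was 41.7% of the 24 G1/S genes with a window and 5.56% of the 18 G2/M genes, against 5.17% of the tested genes.

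**Figure D4:**
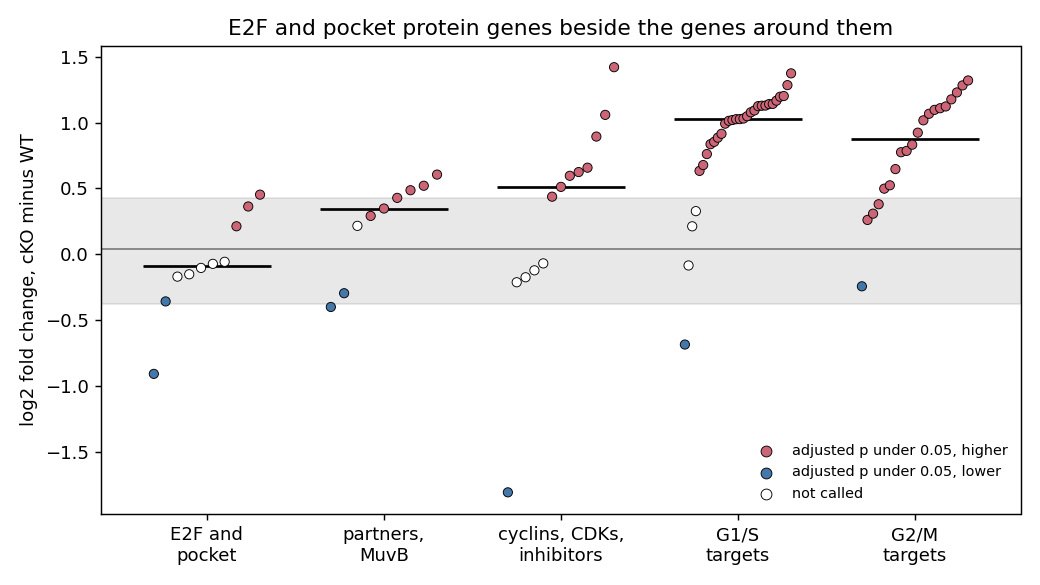
Log2 fold change (cKO minus WT) of the 10 members and of the tested genes of 4 lists, 1 point per gene, with red for called higher, blue for called lower and white for not called, a black line at each median, and the median and quartiles of all tested genes as a grey line and band. The members spread around the grey line at a median of -0.087, while the G1/S and G2/M genes lie mostly above the band, with medians of 1.03 and 0.88.

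The genes whose 6 values followed those of *Rbl1* most closely were *Nup88*, *Lnp*, *Fubp1*, *Xpo1* and *Tubb2b*, by Euclidean distance of the centred log2(FPKM + 1) values among 10316 genes. Their distances were 0.036 to 0.053 and their log2 fold changes 0.42 to 0.48. For *E2f4* they were *Usp36*, *Tob2*, *Gm29766*, *Anks1* and *Prkcz*, at distances of 0.079 to 0.093 and log2 fold changes of -0.93 to -0.86. These likenesses rest on 6 libraries of 2 genotypes and are a description.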

How the data were processed

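Sorted DP thymocytes of 3 WT and 3 NSrp70-cKO samples were analysed. Per the labels and the study's methods, the authors made poly(A)-enriched directional libraries, sequenced paired-end reads, used fastx trimmer for trimming, Tophat for mapping to mm10 and Cufflinks for expression, which gave the deposited FPKM values, 1 per gene symbol and library. Versions, annotation and strand setting are not given in the sources used here. FPKM values are not counts, so the DESeq2 test of the study was not repeated.

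Libraries were scaled by median-of-ratios size factors. Genes that reached 1 FPKM in 3 or more libraries entered a fit of log2(FPKM + 1) on genotype in limma 3.58.1 (R 4.3.3, lmFit, eBayes with a trend, Benjamini-Hochberg over all genes tested). The fit was also run on simulated data, whose outcome is not reported here and is no measure of the error of these calls. Symbols were matched to GENCODE mouse release 21 (GRCm38). Depth was estimated at single-transcript coding genes above 1000 nucleotides with an assumed fragment of 200. The GC and length correction used natural splines with 5 degrees of freedom. Python 3.11.15 with numpy 2.4.6, pandas 2.3.3, scipy 1.17.1 and matplotlib 3.10.9 was used.

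The members, gene lists, named genes and alternative settings were chosen with earlier results of these data known. Named were all members and the genes of the short list, and of longer lists up to 4 called genes without overlap per direction, by size of the log2 fold change. A gene that this rule names is not reported here. Also named were *Ccnd1* and *Ccnd3*, as the other D cyclins beside *Ccnd2*, and the 5 genes most like the member with the largest called rise and the largest called fall. The promoter motif was chosen after the member values were seen.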

Additional observations from a re-analysis of the deposited data

How the results depend on the processing

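The count of called members was 5, and it was 8, all lower in cKO, with FPKM totals equalized, 1 after averaging WT into 1 sample and 3 to 6 with 1 library left out, being 3 without WT 1, WT 2 or WT 3. The fit with 3 WT samples called 6766 genes and the one with the WT libraries as 1 sample 1645, while leaving out a library gave 5585 to 7667. The partner and MuvB list had 8 called genes, 3 with equalized totals, 0 with WT as 1 sample and 5 with the GC and length correction, with or without the replicate block. The cyclin and kinase list went from 9 called genes to 4, and the G2/M list from 20 to 13, with WT as 1 sample. Of the members, those reversed in sign with a call in either fit were *E2f6* (-0.11), *Rb1* (-0.33) and *Rbl1* (-0.086) with equalized totals. With the GC and length correction, with or without the replicate block, they were *E2f1* (0.37) and *E2f2* (0.43). *E2f7* was called lower with equalized totals, at -0.57 (limma adjusted p = 0.00594), against a median of -0.45 over all tested genes. Not called in the main fit at -0.15, it turned to 0.021 under quantile normalization and to 0.0061 with the GC and length correction, again not called. The cause of these reversals was not tested. The GC and length correction also moved the log2 ratio differences of *Rbl1* to *Rbl2* (0.35), *E2f1* to *E2f4* (1.16) and *E2f8* to *E2f6* (-0.62). Leaving out 1 library kept the differences at 0.52 to 0.54, 0.79 to 0.91 and -0.94 to -0.71 for these pairs. Same-numbered WT and cKO libraries did not deviate together (correlations -0.022, 0.039 and 0.031 over the tested genes), so they share only a number. With the replicate block 6467 genes and 4 members were called, *Rb1* being lost (adjusted p = 0.0714). Pseudocount, trend and absence of scaling changed no call of a member. Depth limits *E2f3*, *E2f6* and *E2f7* most, at 192 to 451 estimated fragments.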
